A study of Danio rerio with 3 samples.

Results

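Progenitors in S phase are here retinal cells labelled by their transcripts of S phase genes. Of the 26471 cells kept from 3 libraries, 1882 met the rule for them. The copying of DNA itself was not measured. A cell was counted as a member when it held at least 10 UMIs (unique molecular identifiers, each standing for 1 captured transcript) in total of pcna, mcm2, mcm3, mcm4, mcm5, mcm6 and rrm2.1, and at most 2 UMIs in total of cdc20, plk1, ccnb1, nusap1, tpx2 and cenpf. These 7 S genes and 6 mitotic genes chose the cells, so their levels among members are a description of the choice. No cell was used for a member rule unless it held at least 200 detected genes and stayed under the upper limits of genes and mitochondrial UMIs that the study set for each library.

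In the zebrafish retina, Müller glia are the resident glia that can leave rest after photoreceptor loss, re-enter the cell cycle and give rise to neuron-generating progenitors. A cell in S phase builds the clamp (pcna) and the helicase (the mcm genes) of the replication fork and makes deoxynucleotides with ribonucleotide reductase (rrm1 and rrm2), and afterwards it raises the kinases and spindle genes of G2 and mitosis. Glial genes such as glula, which encodes glutamine synthetase, are known to fall on the way, while proneural factors such as ascl1a and Notch targets of the her family are known to act then.

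Cells sorted by FACS as Gfap-positive were profiled by droplet-based 3′ single-cell RNA sequencing in 3 libraries of zebrafish larvae at 9 dpf. The no ablation control carried Tg(her4.1:dRFP/gfap:GFP), the Lws2-ablation line added lws2:nfsb-mCherry and the Sws2-ablation line added sws2:nfsb-mCherry, which put a nitroreductase in red or in blue cones. Metronidazole was given at 10 mM for 48 h from 6 dpf, so the cells were taken 3 days after injury, and ablation of a cone type was compared with no ablation. The number of pooled larvae was not stated, GFP followed the gfap promoter and can persist in the progeny of glia, and the sort therefore does not restrict the cells to glia. Each condition is 1 library and the libraries were made with kits of more than 1 chemistry, so a difference between conditions, kits and libraries cannot be told apart and no test between them was made. The 95% intervals given below cover counting error only.

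The deposited matrices held 8336, 10557 and 7896 barcodes with 43017721, 75131968 and 52577782 UMIs for the no ablation control, Lws2-ablation and Sws2-ablation, and 8190, 10430 and 7851 cells were kept. EGFP was nearly absent from the Sws2-ablation library, at 6.15 CPM (UMIs of a gene over all UMIs of the summed cells, scaled as counts per 1000000) in members against 280 in the control and 270 after Lws2-ablation, although the reporter line should carry GFP. Because its label and its transgene go apart, it is named the labelled Sws2 library from here on. RFP, whose sequence the authors added to the reference, stood at 1092, 1625 and 1681 CPM in the members of the control, Lws2-ablation and the labelled Sws2 library. Between 17 and 29 barcodes were shared by a pair of libraries, and none of the shared barcodes was a member in both. Unless said otherwise, series of 3 values follow the order no ablation control, Lws2-ablation, library labelled Sws2-ablation.

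Members were found in all 3 libraries, and their share of the kept cells was about 3-fold higher in both ablation libraries than in the control. In the control 243 of 8190 kept cells were members, a share of 2.97% (exact Clopper-Pearson interval 2.61 to 3.36). After Lws2-ablation 936 of 10430 were members, 8.97% (8.43 to 9.54), and in the labelled Sws2 library 703 of 7851, 8.95% (8.33 to 9.61). The intervals of the ablation libraries overlap each other and not that of the control. Members were deep cells, with a median of 11667, 12190 and 13886 UMIs against 4391, 5905 and 5034 over all kept cells, and a minimum of 10 UMIs is met more easily by a deep cell. When every cell was thinned to 5000 UMIs and a member needed 5 S gene UMIs and at most 1 mitotic UMI, the shares were 7.55, 17.2 and 17.5% of the 3205, 6055 and 3960 cells that remained. The order of the control below the ablation libraries was the same, and 4985, 4375 and 3891 shallower cells were left out.

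The S gene threshold cut through a continuous distribution, and few cells lay at its edge. Members at exactly 10 S gene UMIs numbered 10, 21 and 24, and cells with 9 that otherwise met the rule numbered 6, 23 and 38. The median member held 34, 39 and 29 S gene UMIs, and the highest 185, 233 and 173. The mitotic limit lay within a denser range, since 19, 118 and 78 members held exactly 2 mitotic UMIs and 8, 75 and 47 cells were kept out with 3. Of all cells with at least 10 S gene UMIs, 336, 1655 and 1056 in number, 51, 387 and 208 held 3 to 9 mitotic UMIs and 42, 332 and 145 held 10 or more.

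The 4 markers named for the label are all genes of the rule. A UMI of pcna was found in 97.5, 99.4 and 98.3% of members, of mcm2 in 86.0, 79.4 and 80.2%, of mcm5 in 88.5, 81.1 and 86.1% and of rrm2.1 in 49.4, 73.3 and 60.5%. The name rrm2.1 stands here for the second of the 2 gene IDs that carry the symbol rrm2 in the files, ENSDARG00000078069. All 4 markers were thus present, with rrm2.1 in the smallest share of members in each library. The 7 S genes are themselves the rule, so these shares describe the choice and do not test the label. Replication genes that the rule did not use are described next.

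Genes of the replication machinery outside the rule were far higher in members than in resting glia, here the 5747, 2606 and 1962 kept cells with at least 10 glula UMIs and at most 2 S gene and 2 mitotic UMIs. The replication fork list of 31 genes, 30 of them in the files, summed to 2610 CPM (exact Poisson interval 2552 to 2669) in the members of the control, 2936 (2906 to 2966) after Lws2-ablation and 2388 (2359 to 2418) in the labelled Sws2 library. Resting glia held 143, 173 and 178 CPM of the same list, and they were themselves chosen to be low in S genes. Kept cells with at least 10 mitotic gene UMIs, the G2 and mitosis cells below, held 1418, 1427 and 1480 CPM. Every listed fork gene in the files had UMIs among members of each library. The single-strand binding subunits rpa3 (290, 364 and 329 CPM) and rpa2 (247, 306 and 252), the flap endonuclease fen1 (195, 232 and 163), DNA ligase lig1 (168, 218 and 155) and the clamp loader subunit rfc4 (167, 170 and 154) had the most UMIs. In resting glia each of these 5 genes lay under 20 CPM.

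Licensing and nucleotide supply genes followed. The cyclin ccnd1, which drives the exit from G1, stood at 773, 401 and 532 CPM in members and at 48.0, 41.9 and 51.6 in resting glia. The histone mRNA-binding protein slbp stood at 164, 239 and 180 CPM, the origin-loading factor cdc6 at 94.7, 89.2 and 60.4, the remaining helicase subunit mcm7 at 67.1, 55.2 and 95.2 and the origin recognition subunit orc6 at 75.3, 77.2 and 62.8. All 4 were under 9 CPM in resting glia. Of the nucleotide genes, dut, whose enzyme keeps uracil out of DNA, was at 429, 602 and 433 CPM against 6.06, 11.6 and 13.8 in resting glia, and rrm1, the large reductase subunit, at 282, 328 and 206 against 2.98, 6.47 and 5.03. The nucleoside diphosphate kinase nme2b.1, at 2159, 2835 and 2958 CPM, was also high in resting glia (685, 1714 and 1875).

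Chromatin and repair genes rose with them over resting glia, but unevenly against dividing cells. The nucleosome-binding hmgn2 was at 2683, 5104 and 3521 CPM in members, hmgb2a at 1413, 2346 and 1580 and hmga1a at 1724, 2033 and 1247. In G2 and mitosis cells, the 82, 509 and 231 kept cells with at least 10 UMIs of the 6 mitotic genes, hmgn2 reached 12317, 16976 and 13896 CPM. The mismatch repair gene msh6 went the other way, at 83.4, 80.0 and 77.3 CPM in members and 15.0, 14.7 and 17.4 CPM in G2 and mitosis cells. The uracil glycosylase unga stood at 63.7, 85.6 and 70.7 CPM in members.

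Set against G2 and mitosis cells, members held more origin, fork and mismatch repair transcripts and more transcripts of some mature glial genes, and fewer neurogenic ones. Both groups were chosen on cell cycle genes, so this contrast is a description and the 13 rule genes were left out. At least 2-fold the same way in all 3 libraries, 30 of 1450 genes were higher in members (2.07% of those tested) and 138 lower (9.52%). With mitochondrial and ribosomal protein genes left out of the totals, 87 were higher and 178 lower. The 10 highest by their smallest ratio were msh6, hells, mcmbp, cdc6, orc6, gins2, apoeb, ddx24, dnajc9 and mt2. Of these hells, a chromatin remodeller tied to DNA methylation, stood at 208, 157 and 123 CPM in members against 57.8, 48.4 and 39.9, and the fork factor gins2 at 110, 95.8 and 82.9 against 21.4, 22.1 and 32.5. The apolipoprotein gene apoeb and the metallothionein mt2 of the same 10 belong to the mature glia list.

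The 10 lowest were si:ch211-69g19.2, aspm, kpna2, kmt5ab, kif11, tacc3, ube2c, ccnb3, aurka and zgc:194627, most of them known from the spindle or from mitotic exit. All 28 tested genes of the G2 and mitosis list outside the rule were lower in members. Of the 17 tested early neurogenic genes 5 were lower, namely gadd45gb.1, hes2.2, neurog1, otx2b and vsx1, and none was higher. Of the 8 tested mature glia genes 3 were higher, apoeb, cebpd and mt2. Only 2 of 15 tested replication fork genes, fen1 and gins2, and 2 of 8 tested G1/S genes, cdc6 and orc6, were higher. The number of members per G2 and mitosis cell was 2.96, 1.84 and 3.04, and the G2 and mitosis cells were 1.00, 4.88 and 2.94% of the kept cells, so the make-up of the dividing cells differed between the ablation libraries as well.

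**Figure D1:**
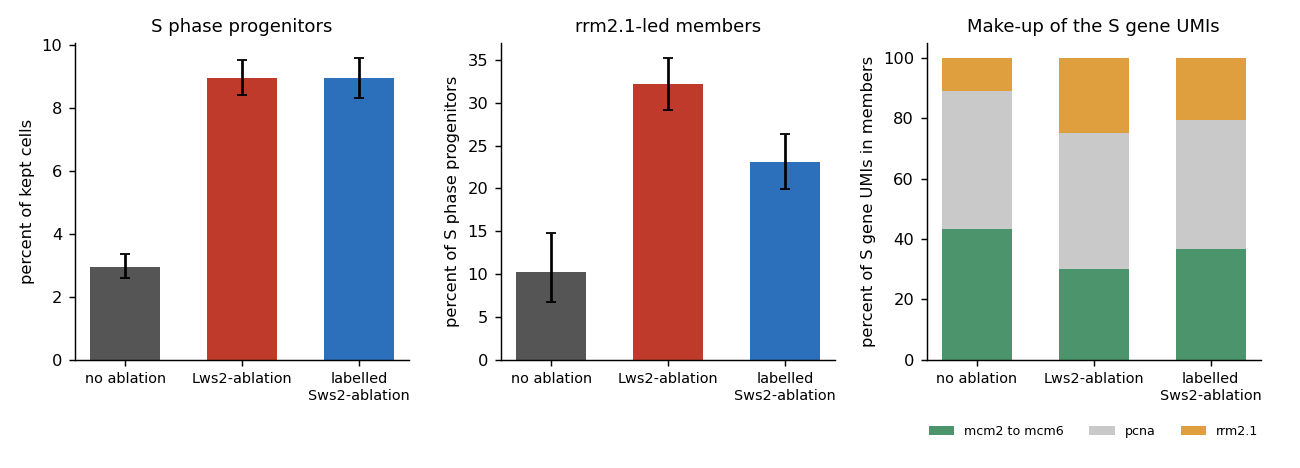
Members as a share of kept cells with exact Clopper-Pearson intervals (left), members with more rrm2.1 than mcm UMIs as a share of members with the same intervals (middle) and the parts of the 7 S genes in the S gene UMIs of members (right), in percent, for the 3 libraries. Shares of kept cells were 2.97, 8.97 and 8.95%, and rrm2.1 made up 11, 25 and 20.6% of the S gene UMIs.

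Members were not alike in which S genes they carried. The helicase genes mcm2 to mcm6 gave 43.3, 30 and 36.7% of the S gene UMIs, pcna 45.8, 45.0 and 42.7% and rrm2.1 11, 25 and 20.6%. Members with more rrm2.1 than mcm UMIs (summed over the 5 mcm genes), called rrm2.1-led, were 25 of 243 in the control (10.3%, 6.77 to 14.8), 301 of 936 after Lws2-ablation (32.2%, 29.2 to 35.3) and 162 of 703 in the labelled Sws2 library (23%, 20 to 26.3). The others, called mcm-led, were 217, 618 and 527, with 1, 17 and 14 ties. The 3 intervals, which hold counting error over cells only, do not overlap. This split was chosen after its values were seen and gets no test, and the fewest cells stand behind the value of the control.

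The rrm2.1-led share moved with the mitotic UMIs that the rule still allowed. Among members with 0, 1 and 2 mitotic UMIs the rrm2.1-led share was 5.13, 17.2 and 52.6% in the control, 19.0, 45.9 and 71.2% after Lws2-ablation and 11.8, 41.4 and 60.3% in the labelled Sws2 library. In the same steps cdk1, the kinase of mitotic entry, stood at 6.16, 33.9 and 87.1 CPM in the control, 10.2, 31.4 and 81.2 after Lws2-ablation and 5.58, 23.4 and 57.7 in the labelled Sws2 library. Both rose step by step within each library. The steps and the split were built from the rule genes, and cdk1 is on the G2 and mitosis list. The rise is therefore a description and gives no test of an order of the cells. With no mitotic UMI allowed, the rrm2.1-led shares were thus lower, with the control still lowest. There the intervals of the control (2.49 to 9.23%) and of the labelled Sws2 library (9.02 to 15.0%) overlapped. With up to 9 mitotic UMIs allowed the rrm2.1-led shares were 22.1, 49.2 and 36.8%.

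Compared with mcm-led members, rrm2.1-led members held more nucleotide, repair, G2 and neurogenic transcripts in every library. At least 2-fold in all 3 libraries, 64 of 1403 tested genes were higher in rrm2.1-led members (4.56% of those tested) and 1 was lower (0.0713%). With mitochondrial and ribosomal protein genes left out of the totals, 58 were higher and 9 lower. Among members with no mitotic UMI, 19 were higher and 3 lower. The 10 highest were ccna2, cdk1, top2a, fbxo5, zgc:165555.11, slc29a2, aurkb, nuf2, mad2l1 and mki67, of which ccna2, the cyclin of late S phase and G2, stood at 159, 154 and 141 CPM against 13, 12.4 and 8.73 in mcm-led members. The symbol zgc:165555 has several gene IDs in the files, so the value of any 1 of them is uncertain.

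By list, all 12 tested genes of the G2 and mitosis list were higher, as were 5 of 9 nucleotide supply genes (dck, dhfr, dut, rrm1 and tyms), 4 of 10 G1/S genes (ccne2, e2f7, e2f8 and slbp) and 4 of 18 chromatin genes (asf1ba, dek, h2afx and hmgb2a). None of the 19 tested replication fork genes reached 2-fold, with a median log2 difference of 0.78 against 0.17 over all genes tested. Dut stood at 968, 1040 and 1008 CPM in rrm2.1-led members and 364, 412 and 297 in mcm-led members. The histone variant h2afx, which marks broken DNA when phosphorylated, stood at 519, 574 and 685 CPM against 123, 163 and 128, and slbp at 389, 445 and 495 against 138, 150 and 106. All 3 genes were higher in rrm2.1-led members in each library.

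The lowest ratios were less far from 1. Only si:dkey-239h2.3 was called lower, at 44.6, 31.9 and 75.6 CPM against 158, 84.4 and 213. Below 1 in each library, without reaching 2-fold in all of them, were gtpbp4, eif4ebp3, rsl1d1, ddx21, nifk, cdca7b, cebpd, lpin1 and nop53, of which gtpbp4, rsl1d1, ddx21, nifk and nop53 act in ribosome assembly. For gtpbp4 the levels were 239, 239 and 285 CPM in rrm2.1-led members and 594, 479 and 610 in mcm-led members.

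Neurogenic genes differed between these groups of members too. Of 14 tested early neurogenic genes, hes2.2 and mybl1 were at least 2-fold higher in rrm2.1-led members in all 3 libraries and none was lower, with a list median of 0.93 against 0.17 over all genes tested. For hes2.2, a repressor of the Hes family, the levels were 363, 382 and 441 CPM against 99.3, 122 and 120. The bipolar factor vsx1, which was below the level needed for a call in the control, was at 38.2, 122 and 101 CPM against 15.3, 27.4 and 16.3, and the photoreceptor and bipolar factor otx2b at 76.4, 86.6 and 114 against 42.8, 31.4 and 26.6. The proneural factor neurod4 stood at 341, 241 and 284 CPM against 181, 84.1 and 73.9. Ascl1a did not follow this pattern in the control, where its ratio was 0.894 (0.682 to 1.15), while it was 1.84 (1.70 to 2.0) after Lws2-ablation and 1.71 (1.55 to 1.88) in the labelled Sws2 library.

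These differences were also there among members with no mitotic UMI at all, where 10, 112 and 57 rrm2.1-led members stood against 185, 466 and 416 mcm-led ones. The ratio of hes2.2 was 6.38 (4.92 to 8.21) in the control, 2.18 (1.91 to 2.48) after Lws2-ablation and 2.22 (1.86 to 2.64) in the labelled Sws2 library. For vsx1 it was 5.95, 3.82 and 5.54, and for neurod4 2.71, 2.15 and 4.18. The control values rest on 10 cells.

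**Figure D2:**
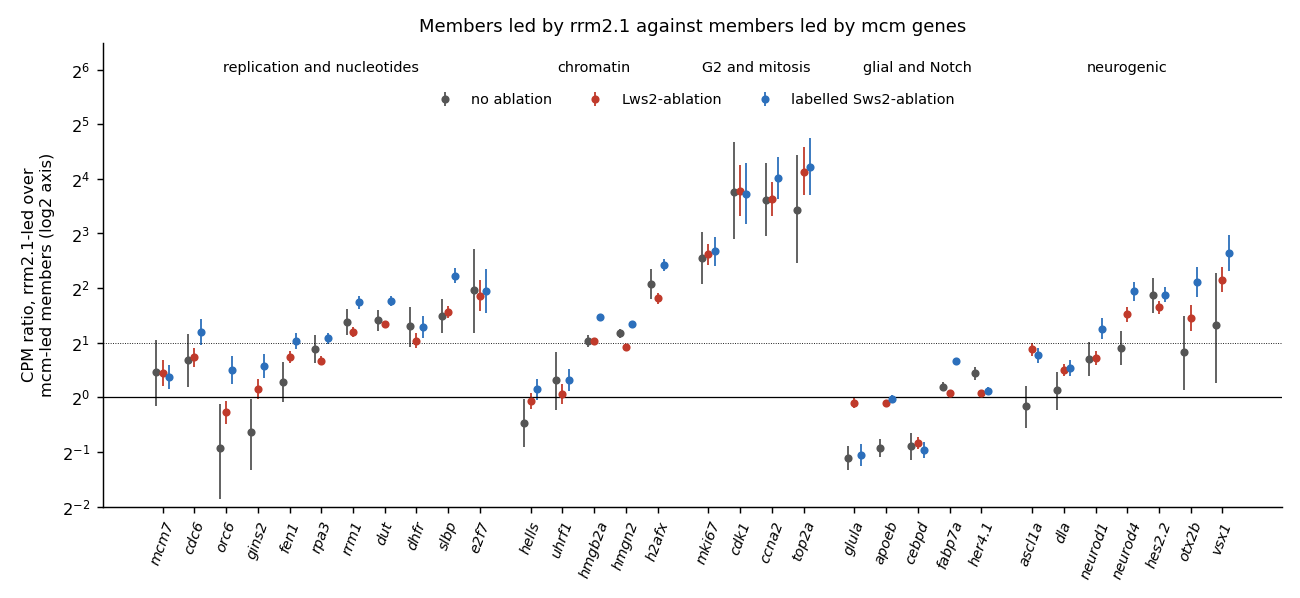
Ratio of CPM in rrm2.1-led over mcm-led members for genes of the fixed lists, on a log axis, with exact Poisson ratio intervals, in each of the 3 libraries. Ccna2 and cdk1 lie at 12.3 to 16.1 and 13.1 to 13.6, hes2.2 at 3.14 to 3.68, and glula at or below 0.933.

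Mature glial transcripts were counted in members at a small fraction of their level in resting glia, and the control had the most. The mature glia list of 27 genes summed to 7127 CPM (7031 to 7224) in members of the control, 3816 (3782 to 3851) after Lws2-ablation and 3093 (3060 to 3127) in the labelled Sws2 library. Resting glia held 65288, 61588 and 48843 CPM and G2 and mitosis cells 3010, 1905 and 1409. The values of members lay between these groups in each library. The list was lower in the ablation libraries than in the control in members and in all other kept cells, at 52889, 25087 and 21426 CPM in the latter. The make-up of those other cells differed, since resting glia were 5747 of 7865, 2606 of 8985 and 1962 of 6917 of them. The part of make-up in their fall was not tested. Without the cells of the highest doublet scores, members held 5986, 2739 and 2322 CPM of the list.

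Glula, the glutamine synthetase gene, stood at 1149 CPM (1110 to 1188) in members of the control, 411 (400 to 422) after Lws2-ablation and 220 (211 to 229) in the labelled Sws2 library. That was 6.59, 4.08 and 3.42% of its level in resting glia, which were themselves chosen on glula. Its paralog glulb was at 1444, 804 and 750 CPM, apoeb at 1950, 821 and 867, and the transcription factor cebpd at 796, 335 and 388. These 4 genes remained above their levels in G2 and mitosis cells in every library. The retinoid-binding rlbp1a stood at 293, 305 and 159 CPM in members and 2950, 3471 and 2692 in resting glia, and mt2 at 591, 370 and 216 against 7369, 9738 and 7593.

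Free RNA in droplets can put abundant glial transcripts into any cell, so neurons of the same libraries were read beside members. After thinning to 5000 UMIs a glula UMI was found in 78.9, 55.3 and 35.4% of members (90.9, 78.5 and 60.2% without thinning). Neurons, here the 244, 719 and 79 kept cells with at least 10 UMIs of elavl4, snap25a, snap25b and stmn2a and at most 2 S gene and 2 mitotic UMIs, had it in 93.4, 65.9 and 46.7% (94.7, 77.5 and 64.6% without thinning). The median depth of neurons was 4958, 4844 and 5895 UMIs. Thinned shares, here and below, are of the 223, 892 and 675 members and 122, 346 and 45 neurons with at least 5000 UMIs. Low shares of neurons therefore rest on few cells. For apoeb the thinned shares were 68.6, 55.7 and 43.4% of members and 87.7, 65.3 and 80.0% of neurons. Both genes were thus found in a smaller share of members than of neurons in each library, and no expression is read from these shares. The neurons were themselves no clean measure of free RNA, since their mature glia list summed to 27353, 6540 and 8907 CPM. The rule for neurons did not leave out cells rich in glula, so a cell could count both as a neuron and as resting glia. At 5000 UMIs the median neuron held 182, 7 and 5 UMIs of that list, against 309, 314 and 242 in resting glia and 13, 9 and 7 in members. The part of free RNA in the glial values of members was not tested.

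Some glial genes stood in other proportions in members than in resting glia. For each glula UMI members held 1.26, 1.96 and 3.41 of glulb, against 0.406, 0.734 and 1.19 in resting glia and 0.441, 0.662 and 1.16 in neurons. For cebpd the ratios to glula were 0.693, 0.816 and 1.76 in members against 0.294, 0.272 and 0.368 in resting glia and 0.280, 0.264 and 0.336 in neurons. Members thus held more glulb and cebpd per glula UMI than resting glia in each library. The same was true of apoeb, rlbp1a and cdo1, so the difference was not particular to glulb and cebpd. Resting glia were chosen for at least 10 glula UMIs, which raises glula there and lowers each ratio to it. The part of that choice in these differences was not tested. Mt2 (0.515, 0.900 and 0.981 against 0.423, 0.967 and 1.18 in resting glia) and the glutamate transporter slc1a2b (0.172, 0.273 and 0.404 against 0.151, 0.233 and 0.346) lay much closer to the proportions of resting glia.

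Activated glia and Notch genes were lower in sum in members than in resting glia, while several her genes were higher. The list of 33 genes summed to 47292, 42891 and 32813 CPM in members against 86076, 73956 and 80656 in resting glia, which was 54.9, 58.0 and 40.7%. Without notch3 it was 68.6, 64.8 and 57.1%. The brain-type fatty acid-binding protein fabp7a stood at 4073 CPM (4000 to 4147) in the control, 7968 (7919 to 8018) after Lws2-ablation and 4850 (4808 to 4892) in the labelled Sws2 library, which was 63.0, 68.6 and 57.2% of its level in resting glia. The Notch target her4.1 stood at 1637, 1467 and 1017 CPM, above its 926, 595 and 704 in resting glia, and her15.1 at 4051, 4597 and 2612, above 2960, 3308 and 2271. The further targets her4.2, summed over its gene IDs (5220, 2828 and 2806 CPM), and her15.2 (3106, 2717 and 2597) also exceeded resting glia in each library. Her6, of the same family, did not, at 1737, 1271 and 947 CPM against 3756, 2678 and 2119. Near-identical her copies can share reads, so the value of a single copy is uncertain.

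After thinning, a her4.1 UMI was found in 69.5, 72.5 and 65.8% of members (74.9, 76.9 and 74.1% without thinning), 32.8, 34.2 and 30.5% of resting glia and 18.0, 20.2 and 8.89% of neurons. For each glula UMI members held 1.42, 3.57 and 4.62 of her4.1 and 3.55, 19.4 and 22.0 of fabp7a, against at most 0.110 and 1.51 in resting glia and neurons. The ratios of resting glia are lowered by their choice on glula. The immediate early genes fosab (3524, 2476 and 1665 CPM) and jun (2215, 1669 and 1363) went the other way, at 9920, 8310 and 6149 and at 7982, 5390 and 4533 CPM in resting glia. The receptor gene notch3 was counted at 14566, 10440 and 8992 CPM, high for a receptor mRNA, against 38393, 23902 and 38946 in resting glia, and its level is reported as counted. The pluripotency-linked RNA-binding gene lin28a was low, at 3.75, 26.5 and 16.5 CPM. After thinning it had a UMI in 0.897% of members of the control and 7.51% after Lws2-ablation (4.12 and 19.4% without thinning). Resting glia of these libraries had it in 0.126 and 1.74% after thinning.

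Genes that mark regional glia were low in members. The ventral retinoid enzyme rdh10a stood at 120, 90.7 and 65.0 CPM against 386, 268 and 186 in resting glia, and fgf24 at 63.3, 25.1 and 20.4 against 593, 317 and 285. The dorsal ephrin efnb2a was at 97.7, 88.8 and 73.7 CPM, 78.7, 82.3 and 66.6% of its level in resting glia, against 31.0, 33.8 and 34.9% for rdh10a and 10.7, 7.94 and 7.18% for fgf24. The 3 genes thus kept unequal parts of their resting levels. Ephb2b stood at 38.1, 42.1 and 49.9 CPM, tbx2b at 47.7, 37.8 and 29.0, cd99 at 8.17, 13.3 and 6.72, igf2b at 18.0, 8.38 and 4.35, and inhbab at 21.8, 3.59 and 4.35. The last 7 of the list, aldh1a3, vax1, bmpr1ba, tbx5a, vax2, efnb1 and aldh1a2, were each under 10 CPM in every library.

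**Figure D3:**
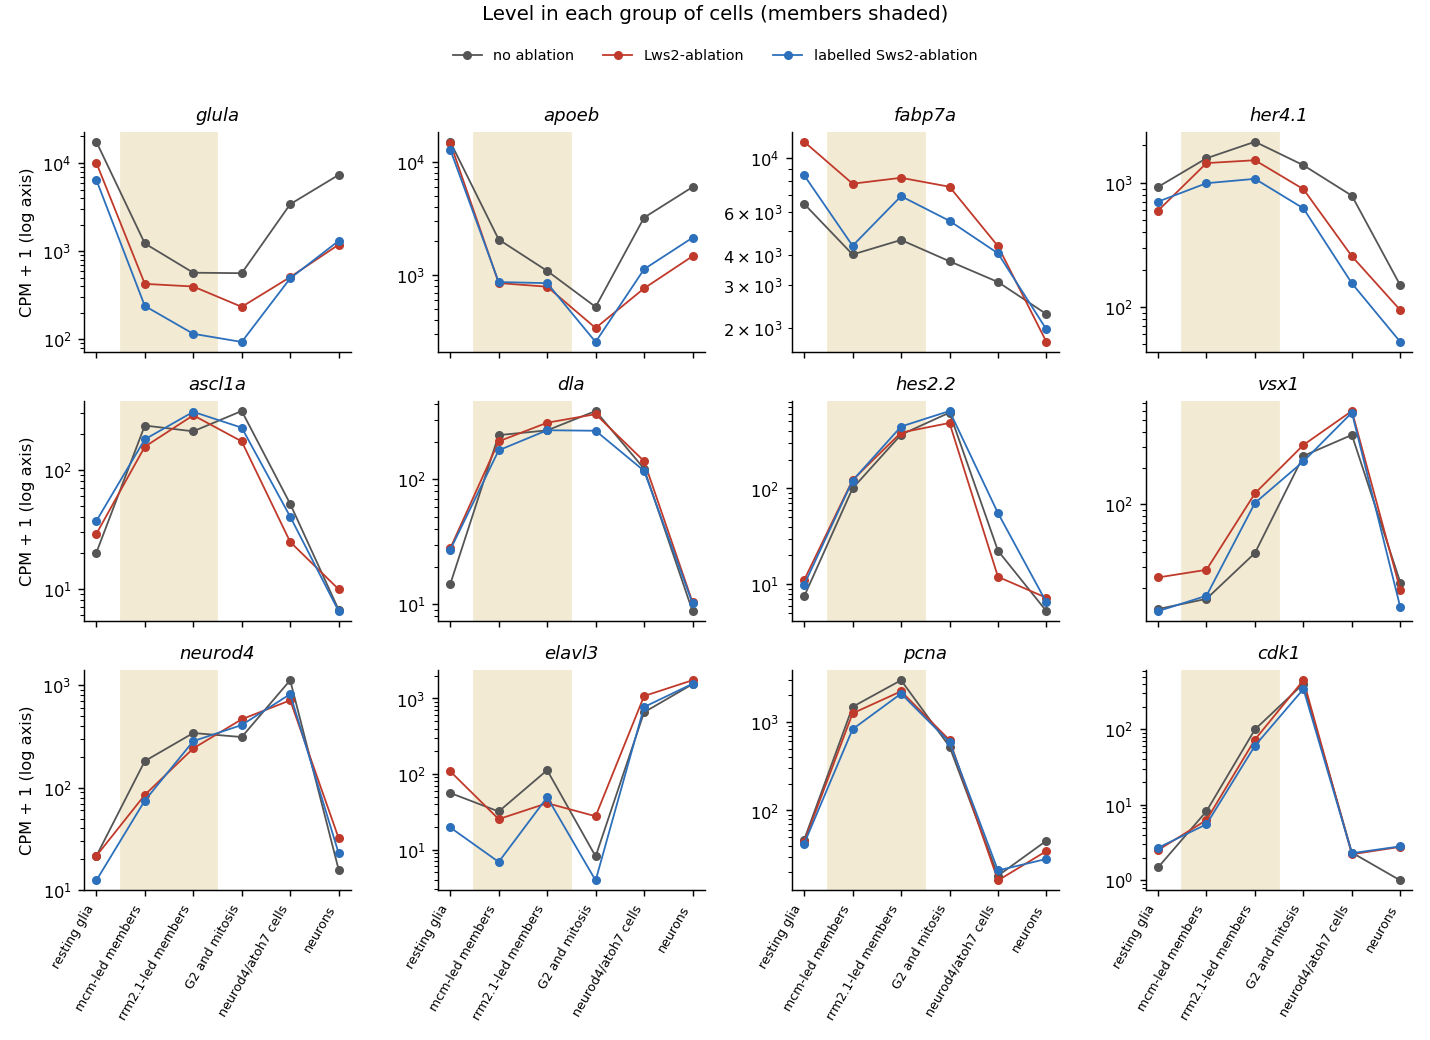
Level of 12 genes in resting glia, mcm-led and rrm2.1-led members, G2 and mitosis cells, neurod4 and atoh7 cells and neurons of each library, as CPM with 1 added on a log axis. Glula falls from 17433 CPM in resting glia of the control to 1149 over its members, and hes2.2 is at 127 to 202 CPM over members and 481 to 642 in G2 and mitosis cells.

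Retinal progenitor factors were counted in members of each library, but at a lower sum than in the groups beside them. The list of 29 genes summed to 2192, 1849 and 1755 CPM in members, against 3874, 2940 and 2599 in resting glia. G2 and mitosis cells held 3277, 2999 and 2639 CPM of it, and neurons 4728, 3588 and 3639. The eye field genes six3b (206, 181 and 145 CPM) and rx1 (180, 137 and 121) and the neural stem cell factor sox2 (151, 141 and 147) were present in members at levels of the same order as in resting glia, at 42.7 to 106% of them for sox2 and rx1. Foxn4 and insm1a, transcription factors known from neurogenic progenitors, stood apart from this group. Foxn4 was at 108, 89.8 and 172 CPM against 3.5, 6.08 and 11.6 in resting glia, and insm1a at 163, 114 and 85.1 against 10.7, 16.7 and 6.88. Both were higher still in G2 and mitosis cells, at 339, 265 and 383 and at 379, 525 and 396 CPM.

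Early neurogenic transcripts were present in most members of each library. The list of 32 genes summed to 2592 CPM in members of the control, 2213 after Lws2-ablation and 1785 in the labelled Sws2 library, and to 4447, 4315 and 3885 in G2 and mitosis cells. Its member btg2, an antiproliferative gene, was higher in resting glia (1595, 1598 and 1117 CPM) than in members (556, 511 and 362). Without it the list stood at 2036, 1702 and 1423 CPM in members against 352, 512 and 303 in resting glia. At 5000 UMIs a cell, 82.1, 73.4 and 68.1% of members held at least 3 UMIs of 29 neurogenic genes (the list without btg2, tubb5 and elavl3), against 13.7, 15.4 and 13.2% of resting glia, 22.1, 37.9 and 46.7% of neurons and 96.3, 92.9 and 92.1% of G2 and mitosis cells. At least 3 UMIs of both neurogenic and her genes were found in 78.9, 66.3 and 63.4% of members.

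The proneural factor ascl1a, which is needed for Müller glia to reprogram in zebrafish, stood at 232 CPM (215 to 250) in the control, 193 (186 to 201) after Lws2-ablation and 203 (194 to 211) in the labelled Sws2 library. Resting glia held 19.1, 28.0 and 36.2 CPM. An ascl1a UMI was found in 45.3, 38.9 and 43.1% of members after thinning (55.6, 56.8 and 64.3% without it) and in 1.64, 2.02 and 2.22% of neurons. The Notch ligand dla was at 226, 225 and 183 CPM, with a UMI in 56.5, 54.8 and 51.3% of thinned members (74.1, 72.2 and 74.1% without thinning) and 3.28, 4.05 and 2.22% of neurons. Both genes were found in far larger shares of members than of neurons, at a level that varied little between libraries.

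Other neurogenic genes differed more between libraries. Hes2.2 stood at 127 CPM (115 to 141) in members of the control, 202 (194 to 210) after Lws2-ablation and 186 (178 to 195) in the labelled Sws2 library, with a UMI in 19.3, 27.9 and 26.7% of thinned members (24.7, 36.5 and 35.4% without thinning) and at most 2.22% of neurons. Vsx1 was at 17.7 (13.2 to 23.2), 54.7 (50.7 to 59.0) and 32.7 (29.3 to 36.3) CPM. For these 2 genes the control was lowest. Olig2, a bHLH factor of neural progenitors, was highest in the control, at 310 CPM (290 to 330) against 105 (99.9 to 111) and 65.4 (60.6 to 70.5), with a UMI in 43.0, 27.9 and 21.6% of thinned members (51.9, 39.2 and 30% without thinning) and at most 6.56% of neurons. So were neurod1 (223, 163 and 91.9 CPM) and neurod4 (198, 131 and 114).

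These neurogenic genes did not fall together between libraries in the other kept cells. There olig2 was 1.29 and 1.28 times its control level after Lws2-ablation and in the labelled Sws2 library, while in members it was 0.341 (0.313 to 0.371) and 0.211 (0.191 to 0.234) times. Neurod4 behaved alike, at 1.84 and 1.62 times in other kept cells and 0.663 and 0.578 in members. The make-up of the 7865, 8985 and 6917 other kept cells differed between libraries. Neurod4 and atoh7 cells, with at least 5 UMIs of these genes and few S gene and mitotic UMIs, were 125, 491 and 243 of them. The part of make-up in the ratios of other kept cells was not tested. A later step of differentiation was nearly absent from members. The neuronal RNA-binding gene elavl3 stood at 39.5, 29.4 and 13.9 CPM in members against 1547, 1744 and 1565 in neurons, with a UMI in 8.07, 6.73 and 2.81% of thinned members (10.7, 11.3 and 3.98% without thinning) and 95.9, 94.5 and 91.1% of neurons.

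Part of the members carried transcripts of photoreceptor lineage factors, and few carried the blue cone opsin. Nr2e3, a factor of the rod lineage, stood at 185, 62.1 and 42.8 CPM and was found in 55, 190 and 96 members. Of these, 30, 57 and 34 held at least 5 UMIs of it, with 494 of its 542, 545 of 778 and 328 of 452 UMIs. Opn1sw2, the blue cone opsin and the gene whose promoter drives the ablation in the Sws2 line, was found in 8, 28 and 17 members, and 4, 11 and 9 of these held at least 5 UMIs. Those few cells held 110 of the 117 opn1sw2 UMIs of members in the control, 257 of 289 after Lws2-ablation and 381 of 392 in the labelled Sws2 library. Members held 28.4, 33.8 and 60.3% of all opn1sw2 UMIs of the kept cells.

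The members with at least 5 opn1sw2 UMIs also carried nr2e3 (4 of 4, 9 of 11 and 8 of 9), crx, the homeobox factor of photoreceptor precursors (4, 8 and 9), and neurod1 (4, 10 and 9). Ascl1a was found in 0, 3 and 0 of them, and gnat2, the cone transducin of mature cones, in 0, 1 and 0. Of these cells 0, 1 and 0 were among those with the highest doublet scores. These cells were picked by their opsin and their values are a description.

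Between libraries, more genes were at least 2-fold lower than higher in members of the ablation libraries against the control. After Lws2-ablation 24 of 1767 genes were higher (1.36% of those tested) and 55 lower (3.11%), 4.47% in all. In the labelled Sws2 library 15 of 1676 were higher (0.895%) and 153 lower (9.13%), 10.0% in all. Lws2-ablation against the labelled Sws2 library gave 45 of 1573 higher (2.86%) and 8 lower (0.509%), 3.37% in all. The median log2 ratio of all tested genes was -0.04, -0.36 and 0.31 in the 3 comparisons. With mitochondrial and ribosomal protein genes left out of the totals, the labelled Sws2 library had 48 higher and 112 lower against the control, Lws2-ablation had 45 higher and 75 lower against the control, and Lws2-ablation against the labelled Sws2 library had 37 higher and 33 lower. These counts compare 3 libraries, and both ablation comparisons share the control.

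Most of these differences were found in the other kept cells as well. Of the genes past 2-fold, 73 of 79, 158 of 168 and 53 of 53 had the same sign in all other kept cells, and 59, 103 and 31 reached 2-fold there too. In the 3 comparisons 9, 9 and 8 genes were tested of the G1/S list and 20, 16 and 19 of the replication fork list. Of the nucleotide supply list 9, 8 and 9 were tested, and of the chromatin list 18 in each. None of them passed 2-fold, against 4.47, 10.0 and 3.37% of all tested genes. Members of every library were chosen for high S genes, so this count gives no test of replication between libraries. Of 4 repair genes tested between the ablation libraries 1 passed. That gene was atad5a, at 57.9 CPM after Lws2-ablation against 27.9 in the labelled Sws2 library.

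Mature glial genes were the list with the most genes past 2-fold against the control. After Lws2-ablation 3 of 14 tested genes were lower, apoeb, cebpd and glula. The list median was -0.60, against -0.04 over all genes tested there, of which 3.11% were lower. In the labelled Sws2 library 8 of 13 were lower, apoeb, atp1a1b, cebpd, glula, mt2, ptgdsb.2, slc1a2b and slc3a2a. The list median there was -1.08, against -0.36 over all genes tested, of which 9.13% were lower. No tested gene of the list was at least 2-fold higher in either. The ratio of glula to the control was 0.357 (0.342 to 0.373) and 0.192 (0.182 to 0.202) in members, and 0.278 and 0.183 in all other kept cells. Resting glia were a smaller part of those other cells in the ablation libraries, so these ratios are not like for like.

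Fewer genes of the other lists passed. Of all genes tested, 3.11% were lower and 1.36% higher after Lws2-ablation, and 9.13% lower and 0.895% higher in the labelled Sws2 library. The counts of the neurogenic and of the Notch and activation lists lay near these shares, and nothing is read from them about the lists. After Lws2-ablation vsx1 was higher and olig2 lower among 15 tested neurogenic genes, the first her4.2 ID was lower among 25 Notch and activation genes, and fgf24, sox3 and nr2e3 were lower. In the labelled Sws2 library neurod1 and olig2 were lower among 14 tested neurogenic genes, and fosab, her9 and a second her4.2 ID among 25 Notch and activation genes. Fgf24, sox3 and nr2e3 were lower there as well, as were prox1a and cldn5a. Sox3, a neural progenitor factor, stood at 195, 81.7 and 68.2 CPM. Olig2, fgf24, sox3 and nr2e3 were thus called lower in both comparisons, which share the control. Most nr2e3 UMIs lay in few members of each library, as given above.

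The genes with the lowest ratios to the control were in none of the gene lists. The adhesion receptor gene adgre10 stood at 84.1 CPM in members of the control, 8.54 after Lws2-ablation and 1.23 in the labelled Sws2 library, and the glycogenin gyg1b at 50.4, 6.78 and 5.49. Si:dkey-85k7.7 stood at 246, 46.4 and 42.2 CPM and the lipase lipg at 74.2, 15.9 and 13.1. All 4 were lower in both ablation libraries. Mych, a Myc family gene, stood at 418, 86.8 and 170 CPM, and fkbp5, a glucocorticoid-responsive chaperone, at 159, 44.4 and 29.3.

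The highest ratios of the labelled Sws2 library to the control were of genes listed under clone or locus symbols. FO704772.2 stood at 1.70, 54.8 and 292 CPM in members, CT027638.1 at 114, 520 and 2832, zgc:158463 at 219, 1309 and 5186, zgc:165555.16 at 2.72, 26.6 and 67.9 and zgc:165555.11 at 39.8, 158 and 336. All 5 rose from the control over Lws2-ablation to the labelled Sws2 library. The level of zgc:165555.11 also differed within each library, at 197, 437 and 1211 CPM in rrm2.1-led members against 21.0, 43.2 and 128 in mcm-led members. Si:dkey-239h2.3 stood at 146, 68.1 and 185 CPM.

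Highest after Lws2-ablation were opn1lw2, the red cone opsin of the ablated type, at 4.43, 56.5 and 0.947 CPM, apoc1 at 4.09, 52.0 and 2.56, BX548028.1 at 38.8, 99.3 and 16.9, icn at 18.7, 111 and 22.2 and ptgdsb.1 at 42.6, 64.5 and 14.2. The opn1lw2 value rests in large part on 1 cell, which held 403 of its 708 UMIs, and without it the level was 24.4 CPM. Apoc1, an apolipoprotein known from macrophages, was found in 28 members, 1 of which held 239 of 652 UMIs, and without that member its level was 33.0 CPM. Opn1lw2 stood at 2085 CPM in neurons after Lws2-ablation, and the part of free RNA in the members' value was not tested.

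**Figure D4:**
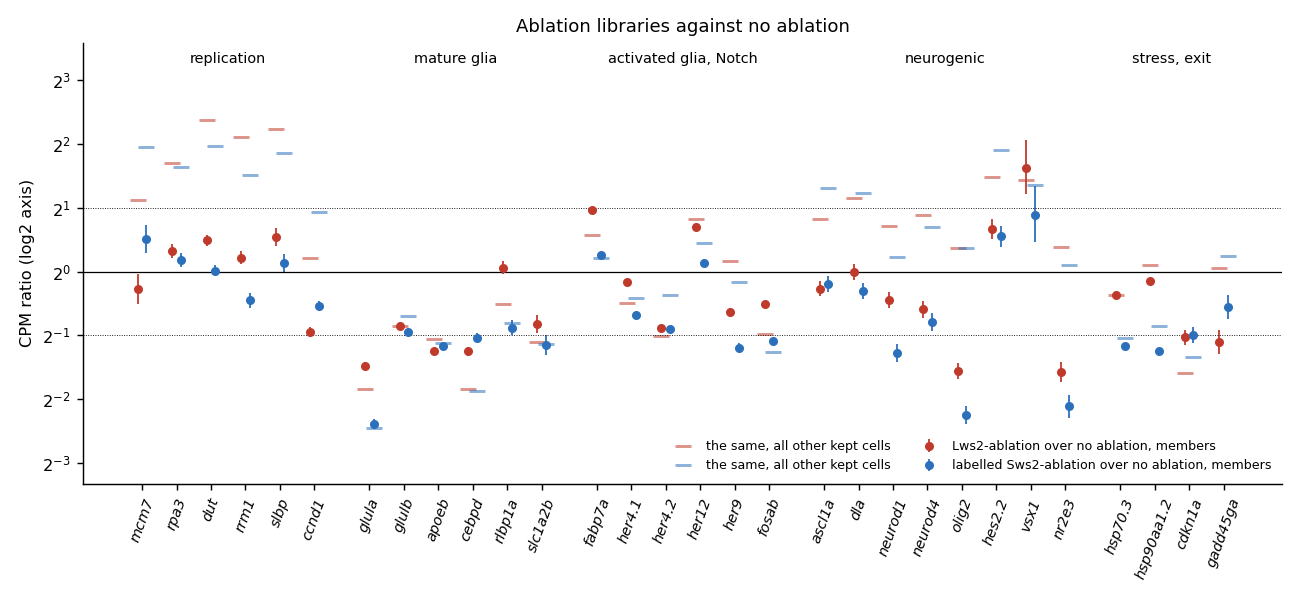
Ratio of CPM in members of Lws2-ablation and of the labelled Sws2 library over the no ablation control, on a log axis, with exact Poisson ratio intervals, and dashes for the same ratio in all other kept cells. The make-up of the other kept cells differed between libraries. Glula lies at 0.357 and 0.192, and olig2 at 0.341 and 0.211 with other kept cells at 1.29 and 1.28.

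Stress genes moved with the library. The heat shock gene hsp70.3 stood at 6521, 5046 and 2899 CPM in members and at 9603, 8373 and 5188 in resting glia, and the stress and dissociation list summed to 27726, 22739 and 13574 CPM in members. Of 14 tested genes of this list 6 were lower in the labelled Sws2 library than in the control, ccng1, fosb, hsp70.2, hsp70.3, hsp90aa1.2 and hspb1, and 1 of 15, cdkn1a, after Lws2-ablation. Of all genes tested, 9.13% were lower in the labelled Sws2 library and 3.11% after Lws2-ablation. The sums of the stress list and of the mature glia list were both lowest in the labelled Sws2 library, though apoeb and cebpd were lowest after Lws2-ablation. The part of handling in the glial values was not tested.

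Genes of cell cycle exit were low or mixed. The kinase inhibitor cdkn1a, which p53 induces, stood at 282, 138 and 142 CPM in members. Of 5 tested genes of this list 2, cdkn1a and gadd45ga, were at least 2-fold lower after Lws2-ablation than in the control. Of all genes tested there, 3.11% were lower. None of the 5 tested in the labelled Sws2 library passed against the control. Rb1, which restrains the entry into S phase, was higher in members (38.8, 24.8 and 22.0 CPM) than in G2 and mitosis cells (4.75, 8.62 and 7.13) and resting glia (3.33, 3.32 and 3.87). The cyclin ccng2, known from arrested cells, showed the reverse, at 17, 27.5 and 18.6 CPM in members against 142, 154 and 97.7 in G2 and mitosis cells and 63.6, 95.6 and 79.2 in resting glia.

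Markers of other cell types were low in members. The list of 36 genes summed to 279, 300.5 and 201 CPM, with 23, 9 and 20 genes at 0. Most of this sum was cldn5b (176, 159 and 162 CPM) and cldn5a (72.2, 63.2 and 28.8), which resting glia carried too (510, 440 and 411, and 47.9, 46.6 and 32.3 CPM). Among the defining markers, mitfa of pigment cells, hbaa1 of red cells and c1qa of microglia were at 0 in members of every library, where a count of 0 allows up to 1.26, 0.294 and 0.349 CPM (upper exact Poisson limits), and mpeg1.1 of macrophages had 0, 7 and 0 UMIs. Apoc1 of the list of 36 went the other way, at 4.09, 52.0 and 2.56 CPM. It was at least 2-fold higher after Lws2-ablation than in both other libraries, where 28 members held its 652 UMIs and 1 of them 239. The list of inner retinal neurons summed to 433, 398 and 226 CPM.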

How the data were processed

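The counts of UMIs per gene and barcode were deposited by the authors as 1 filtered matrix per library, made with Cell Ranger 2.1.1 and GRCz11 by the submitters' processing notes (the matrix header names 3.0.2), with EGFP and RFP among the genes. No normalised value was used, and the depth is given per library in the report. Columns of per-sample values from other series numbered 0.

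A barcode was kept as a cell from 200 genes up to 3500 in the control, 4500 after Lws2-ablation and 4000 in the labelled Sws2 library, with mitochondrial UMIs not above 20, 35 and 30% in that order. The members, the 20 gene lists and the comparisons were chosen with earlier results of these data known. UMIs were summed per library and cell group. A gene was tested in a comparison with at least 20 UMIs and 50 CPM in 1 of both groups, and called at 2-fold on log2(CPM + 1), a scale that understates changes of low genes. Mitochondrial, ribosomal protein, transgene and the 13 rule genes were left out of calls. Intervals are exact Poisson (levels and ratios) and Clopper-Pearson (shares) at 95%. With 1 library per condition no p-value was computed. The ratio procedure was run on simulated Poisson counts without spread between cells. That run cannot show how spread between cells or libraries acts on the calls.

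Named genes were, from each list, the 2 to 6 with the most UMIs over all members (all of the regional list), the 5 highest and 5 lowest per pair of libraries and the 10 highest and 10 lowest of members over G2 and mitosis cells. Genes named from the rrm2.1-led split, the opsin cells, members of lists named for their calls, her4.1, her6, jun and lin28a, and defining markers at 0 were chosen after their values were seen. For symbols with more than 1 gene ID, list levels were summed and calls were made per ID. Of the listed genes 7 were not matched in the files. Some results of the DNA repair list are not reported here. Doublets were not removed from the main values. As an alternative, cells with the highest Scrublet scores (scanpy 1.11.5) were left out at 0.8% per 1000 cells. The score's own threshold marked 0, 159 and 0 cells. Scripts ran in Python 3.11.15 with matplotlib 3.10.9, scipy 1.17.1, pandas 2.3.3 and numpy 2.4.6. No sequence or coordinate is given, since no genome of the files' build was used here.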

Additional observations from a re-analysis of the deposited data

Results flagged for a closer look

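Of the listed genes, tfap2b, an AP-2 factor of amacrine cells, differed in direction between libraries when members were set against G2 and mitosis cells. In the no ablation control the log2 ratio was 2.12, while it was below 0 after Lws2-ablation and in the labelled Sws2 library, where the folds were 0.774 (0.517 to 1.16) and 0.203 (0.0943 to 0.417). The control fold of 8.60 (1.38 to 356) rests on 20 UMIs in members and 1 UMI in G2 and mitosis cells, and the difference between libraries was not tested.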

How the results depend on the processing

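No paired analysis was possible because each condition is 1 library, and no replicate could be left out. Values below follow the order no ablation control, Lws2-ablation, labelled Sws2 library. The control had the lowest member share and rrm2.1-led share, and the highest mature glia and early neurogenic levels, in each alternative run for them. With at least 15 S gene UMIs, member shares were 2.44, 7.93 and 7.32%, the mature glia list stood at 6194, 3602 and 2834 CPM, the early neurogenic list at 2245 and 1852 CPM in the ablation libraries, and 4 genes were lower in rrm2.1-led members. With no mitotic UMI allowed, shares were 2.38, 5.65 and 6.18%, rrm2.1-led shares 5.13, 19.0 and 11.8%, mature glia 8027, 3966 and 3582 CPM, early neurogenic 1981 and 1588 CPM in the ablation libraries, and 19 genes were higher and 3 lower in rrm2.1-led members. With up to 9 mitotic UMIs, an alternative added after seeing the data, shares were 3.59, 12.7 and 11.6% and rrm2.1-led shares 22.1, 49.2 and 36.8%. After thinning to 5000 UMIs, shares were 7.55, 17.2 and 17.5%, the rrm2.1-led share after Lws2-ablation 38.1%, early neurogenic 2975, 2621 and 2403 CPM, and mature glia 7764 CPM in the control and 3344 in the labelled Sws2 library. Genes past 2-fold were then 60 higher over G2 and mitosis cells, 49 and 26 higher over the control after Lws2-ablation and in the labelled Sws2 library, and 35 higher and 6 lower in rrm2.1-led members.

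Without the highest doublet scores, mature glia was at 5986, 2739 and 2322 CPM, early neurogenic at 2178 CPM after Lws2-ablation, and 2 genes were lower in rrm2.1-led members. With the same limits in all libraries, mature glia was at 3620 and 2776 CPM and early neurogenic at 2281 CPM (Lws2-ablation), with 4 genes lower in rrm2.1-led members. Totals without mitochondrial and ribosomal protein genes raised mature glia to 12129, 6721 and 6353 CPM and early neurogenic to 4411, 3897 and 3666 CPM, by their own construction. Genes past 2-fold were then 87 higher over G2 and mitosis cells, 45 and 48 higher over the control, 33 lower after Lws2-ablation than in the labelled Sws2 library and 9 lower in rrm2.1-led members. Without btg2, also added after seeing the data, early neurogenic was at 2036, 1702 and 1423 CPM. With 10 CPM added in place of 1, 15 genes were higher over G2 and mitosis cells and 29 higher after Lws2-ablation than in the labelled Sws2 library. With no filter on low values, higher and lower counts were 139 and 439 over G2 and mitosis cells, 644 and 387 after Lws2-ablation over the control, 552 and 1117 in the labelled Sws2 library over the control, 517 and 119 between the ablation libraries and 261 and 33 for rrm2.1-led members, with many genes of few UMIs. The cause of the other shifts was not tested.

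Condition, kit and library cannot be told apart. Intervals hold counting error only. Values of the control rest on 243 members, and those of its rrm2.1-led members on 25. The rule favours deep cells, and 15, 128 and 152 members held over 20000 UMIs. The doublet alternative left out 4.94, 10.7 and 9.10% of members.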

Other observations

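Some members at the edge of the rule had few UMIs, the lowest at 729, 1177 and 1700, and the deepest members reached 32268, 44541 and 49036 UMIs. Members gave 7.09, 16.9 and 20.3% of the UMIs of all kept cells.

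Levels of early neurogenic genes varied widely among members of the same library. At 5000 UMIs a cell, the median member held 8, 6 and 5 UMIs of the 29 neurogenic genes against 20, 19 and 18 in G2 and mitosis cells, and 46.2, 37.9 and 32.0% of members held at least 10. The median member held 13, 9 and 7 UMIs of the mature glia list against 309, 314 and 242 in resting glia.

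Atoh7, the factor of retinal ganglion cell formation, was found in 8, 49 and 44 members, with 114, 173 and 314 UMIs, at 38.8, 13.8 and 29.7 CPM. The midkine gene mdka, known from activated Müller glia, was found in 196, 876 and 653 members, at 521, 850 and 582 CPM. Atoh7 and mdka were chosen after their values were seen.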
